A study of Rattus norvegicus and Mus musculus with 17 samples.

Results

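Cdkn1a, Cdkn2a, Cdkn3, Btg2, Psrc1, Sesn2 and Fas are 7 genes that restrain the cell cycle, answer to the tumour suppressor p53, or both. They were chosen by symbol from the deposited tables with results of these data known, so their values are described here and not tested. All 7 are among the 4649 genes of the mouse table. Of the 7, 3 are among the 9082 genes of the Morris hepatoma table (Cdkn2a, Cdkn3, Psrc1) and 3 among the 2093 genes of the regenerating liver table (Cdkn3, Psrc1, Sesn2). Each table lists genes with a deposited p-value under 0.05. Genes outside a table have no value here, and a gene in it was already selected for a difference.

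RNA was sequenced from liver tissue of male animals in 5 groups. C57BL/6 mice of both DEN groups had received diethylnitrosamine (DEN, a liver carcinogen, 50 mg/kg) at 14 days of age and TCPOBOP (an activator of the nuclear receptor CAR that promotes liver tumours, 2 mg/kg) 30 days later, and were sampled with tumours at 8 months (n = 3) or before tumours at 5 months (n = 3). Morris hepatoma tissue (n = 4) was taken 2 weeks after cells of MH3924a, a transplantable rat hepatoma line, had been placed in the liver of ACI rats aged 10 weeks. Regenerating liver (n = 4) was taken 24 hours after partial hepatectomy of ACI rats aged 10 to 12 weeks. Untreated ACI liver (n = 3) served as control for both rat comparisons, with equal control values in both tables for all 1752 shared genes. The labels give no age for the control rats. The DEN groups differ in age as well as in tumours, and these cannot be told apart. The DEN libraries are described as liver tissue with tumours, the hepatoma is of 1 cell line, and no label says that each library came from its own animal, so p-values measure the spread between libraries. In bulk tissue, fewer cells of a type and less RNA per cell cannot be told apart.

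Cyclin-dependent kinases (CDKs) drive the cell cycle, and CDK inhibitors bind and block them. Cdkn1a encodes p21, the classical p53 target that halts the cycle after DNA damage. Cdkn2a encodes p16, which blocks Cdk4 and Cdk6, and in another reading frame Arf, which restrains Mdm2 and so stabilises p53. In liver, p21 is induced by genotoxic injury and after partial hepatectomy, and the Cdkn2a locus is often silenced in human liver cancer.

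Values are RPKM, read numbers scaled to transcript length and library size, a scale on which levels can be compared between genes. Fold changes are differences of group means of log2(RPKM + 1) with their standard error (SE) from limma, which makes changes of genes at low levels look smaller than they are. A gene was tested where it reached 1 RPKM in at least as many libraries as the smaller group. It was called where its Benjamini-Hochberg adjusted p over all annotated protein-coding genes was under 0.05. Whole read numbers were recovered from the steps of low RPKM values and put each library at 0.943 to 1.22 times the depth of the first one in mouse, and at 1.00 to 1.18 times in rat. The median log2 fold change of tested genes was -0.56 for DEN liver with against before tumours, 1.58 for hepatoma against control, 0.53 for regenerating against control liver and 1.45 for hepatoma against regenerating liver. Hepatoma libraries 3 and 4 stood apart from libraries 1 and 2 by their hepatocyte RNA. They had 21729 and 18255 RPKM summed over 12 hepatocyte markers, libraries 1 and 2 had 981 and 43.3 RPKM, and control libraries had 82708 to 116099.8 RPKM. Control library 3 stood apart by its mitosis genes, with 17.4 RPKM summed over 12 of them, against 5.33 and 4.24 RPKM in control libraries 1 and 2. Control library 3 also differed in hepatocyte genes, in both directions. It had 570.4 RPKM of Apoa2, against 5348 and 5646 RPKM in control libraries 1 and 2, and 451 RPKM of Cyp2e1, against 3045 and 3687 RPKM. It was the highest control in Apoa1, with 5541 RPKM, against 3313 and 2293 RPKM. The same held for Serpina1, with 20517 RPKM, against 12629 and 11690 RPKM, and for Cps1, with 467 RPKM, against 322 and 354 RPKM.

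The promoters of 3 members are shown because these genes carry the largest differences among the members in the rat tables. They are RefSeq windows from 250 bases before to 50 bases after the start of the rat gene in build GRCr8, and all 7 members matched such a window by symbol. Capitals mark a match, on either strand, to the CHR letters TTTGAA, an element known from promoters of genes expressed late in the cell cycle.
Cdkn2a, chr5:109107907-109108206, minus strand: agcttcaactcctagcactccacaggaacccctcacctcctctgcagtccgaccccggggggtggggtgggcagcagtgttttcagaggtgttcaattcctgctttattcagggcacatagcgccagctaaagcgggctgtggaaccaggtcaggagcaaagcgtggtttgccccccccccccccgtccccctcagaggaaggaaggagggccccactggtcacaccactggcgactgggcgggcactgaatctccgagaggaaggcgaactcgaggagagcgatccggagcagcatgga
Cdkn3, chr15:22502136-22502435, plus strand: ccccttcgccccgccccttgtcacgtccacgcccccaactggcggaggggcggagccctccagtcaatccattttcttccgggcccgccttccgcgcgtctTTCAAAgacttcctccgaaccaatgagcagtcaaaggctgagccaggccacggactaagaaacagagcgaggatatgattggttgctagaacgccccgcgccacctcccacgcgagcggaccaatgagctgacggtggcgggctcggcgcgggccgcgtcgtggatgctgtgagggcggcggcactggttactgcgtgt
Psrc1, chr2:198710299-198710598, plus strand: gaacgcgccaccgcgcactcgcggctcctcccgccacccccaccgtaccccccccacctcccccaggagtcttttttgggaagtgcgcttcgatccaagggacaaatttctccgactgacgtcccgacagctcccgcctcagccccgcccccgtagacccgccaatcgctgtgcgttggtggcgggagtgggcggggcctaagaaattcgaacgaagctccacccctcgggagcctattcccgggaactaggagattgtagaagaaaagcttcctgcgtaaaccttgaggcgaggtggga
The Cdkn3 window held 1 CHR match on the minus strand, 149 to 144 bases before the start. The Fas window held 1 on the minus strand, 104 to 99 bases before the start, and the other 5 windows held none. These letters were in 18.1% of 27457 rat windows of this length. The E2F letters TTTGGCGC and TTTCGCGC, searched on both strands, were in none of the 7 windows and in 0.841% of all windows. The p53 half-site consensus was in 1 of the 7 windows and in 7.89% of all windows. That window belongs to Cdkn1a, which has no rat value here, and its match lies 201 to 192 bases before the start and reads GAACATGTCT. A match is a run of letters and not a shown binding site, and no window held more than 1 match. Each gene had 1 window, so promoters of its other transcripts, such as a second one of Cdkn2a, were not searched.

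The first comparison set DEN liver with tumours against DEN liver before tumours. The CDK inhibitors Cdkn1a, Cdkn2a and Cdkn3 and the p53 targets Btg2, Psrc1 and Sesn2 stood higher with tumours, and the death receptor Fas stood lower. No member's groups overlapped, in a table where 28.6% of listed genes lay wholly higher and 71.4% wholly lower with tumours. By limma with Benjamini-Hochberg adjustment 6 of the 7 members were called higher and 1 lower, beside 17.9% of all tested genes called higher and 49.5% called lower. The members were picked with these calls known, so nothing is read from their number.

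**Figure D1:**
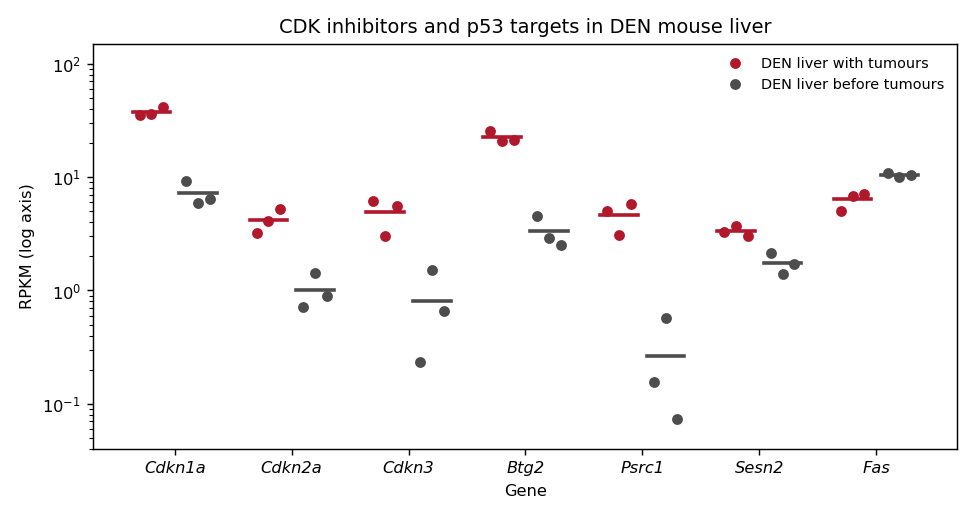
RPKM (log axis) of the 7 genes in each DEN library, with tumours on the left of each pair (red) and before tumours on the right (grey). Points are libraries and bars are means of 3 libraries. Cdkn1a and Btg2 had the highest levels with tumours, and Fas alone lay lower with tumours than before.

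Cdkn1a had 35.3, 35.8 and 41.3 RPKM in the 3 DEN libraries with tumours, against 9.22, 5.96 and 6.38 RPKM before tumours. The libraries with tumours lay close to each other and far above every library before tumours. The means were 37.5 ± 3.35 RPKM with tumours and 7.19 ± 1.78 RPKM before tumours (SD, n = 3 each), a log2 fold change of 2.25 ± 0.17. They rest on 8238 recovered reads with tumours and 1383 before tumours.

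Cdkn2a had 3.21, 4.11 and 5.26 RPKM with tumours, against 0.707, 1.42 and 0.886 RPKM before tumours. All libraries with tumours were higher, at a level far below that of Cdkn1a and close to that of Cdkn3. The means were 4.20 ± 1.03 RPKM with tumours and 1.00 ± 0.368 RPKM before tumours, a log2 fold change of 1.37 ± 0.19. The transcripts of p16 and Arf share most of their sequence and are summed in this value.

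Cdkn3, a phosphatase that removes an activating phosphate from CDKs, had 6.17, 3.05 and 5.53 RPKM with tumours, against 0.232, 1.51 and 0.655 RPKM before tumours. Library 2 was the lowest of the libraries with tumours and library 2 the highest of those before tumours, and the groups still did not overlap. The means were 4.92 ± 1.65 RPKM with tumours and 0.800 ± 0.652 RPKM before tumours (log2 fold change 1.74 ± 0.30), from 435 reads with tumours and 62 before. The mitosis genes were also lowest in library 2 with tumours. Summed over the 11 listed of 15 mitosis genes they had 41.4, 18.9 and 37.5 RPKM with tumours, against 5.68, 7.64 and 5.93 RPKM before tumours, and library 2 was again the highest before tumours.

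Psrc1, a spindle and microtubule protein first described as a target of the p53 family, was likewise lowest in library 2 with tumours and highest in library 2 before tumours. It had 5.00, 3.09 and 5.78 RPKM with tumours, against 0.154, 0.570 and 0.0727 RPKM before tumours. These values rest on 327, 187 and 410 reads with tumours and on 9, 34 and 4 reads before tumours. The ratio of its read rates, with tumours over before, was 17.3 (exact 95% interval 12.9 to 23.7, counting error only), and its log2 fold change was 2.14 ± 0.22. The part of mitotic cells in the Cdkn3 and Psrc1 values was not tested.

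Btg2, an antiproliferative protein that recruits the mRNA deadenylation machinery, had 25.6, 20.7 and 21.1 RPKM with tumours, against 4.57, 2.93 and 2.50 RPKM before tumours. Library 2 was again the lowest with tumours, here close to library 3. The means were 22.5 ± 2.72 RPKM with tumours and 3.34 ± 1.09 RPKM before tumours, and the log2 fold change of 2.46 ± 0.19 was the largest of the 7 members on this scale.

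Sesn2, a stress sensor that restrains mTORC1, had 3.31, 3.67 and 3.04 RPKM with tumours, against 2.14, 1.39 and 1.71 RPKM before tumours. The gap between the groups was small, with the lowest library with tumours at 3.04 RPKM and the highest before tumours at 2.14 RPKM. The means were 3.34 ± 0.318 RPKM with tumours and 1.75 ± 0.379 RPKM before tumours, a log2 fold change of 0.67 ± 0.14.

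Fas, the receptor through which Fas ligand triggers apoptosis of hepatocytes, had 5.04, 6.87 and 7.18 RPKM with tumours, against 10.9, 10.0 and 10.5 RPKM before tumours. Every library with tumours was lower, and the means were 6.36 ± 1.16 RPKM with tumours and 10.5 ± 0.442 RPKM before tumours. The log2 fold change of -0.65 ± 0.15 lay -0.09 from the median of all tested genes, and it was -0.26 after median scaling and -0.25 after quantile normalization, where Fas was no longer called lower. Alb, which encodes albumin, had 86115, 78943 and 84182 RPKM with tumours, against 20865, 24973 and 28261 RPKM before tumours, in the same libraries. Of the 5 listed of 12 hepatocyte markers Alb and Apoa1 rose, Apoa2 and Cyp2e1 fell and Cps1 was not called, with a median log2 fold change of -1.11. Cyp2e1 had 280 ± 282 RPKM with tumours and 3135 ± 65.3 RPKM before tumours. The Fas call was also lost without library 1, 2 or 3 before tumours or library 1 with tumours. The part of the hepatocyte genes in the Fas value was not tested.

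Of the 36 other p53 targets considered, 8 were listed for DEN liver and 7 tested. Of these 6 rose and 1 fell, beside 17.9% of all tested genes called higher and 49.5% called lower. Their median log2 fold change was 0.59, beside -0.56 over all tested genes. The list was drawn up with earlier results of these data known. Tnfrsf10b, a death receptor for TRAIL, rose to 2.74 ± 1.28 RPKM with tumours, against 0.582 ± 0.163 RPKM before tumours (limma, adjusted p = 0.0118). Ckap2, a spindle protein, rose to 1.90 ± 0.590 RPKM, against 0.510 ± 0.194 RPKM before tumours (limma, adjusted p = 0.0112). The other 4 that rose were Perp (0.64 ± 0.16 on the log2 scale), Zmat3 (0.59 ± 0.15), Sfn (0.58 ± 0.15) and Aen (0.58 ± 0.15). Plk3, a stress-responsive kinase, fell by 0.76 ± 0.16 on the log2 scale (limma, adjusted p = 0.0178) but was not called lower after median scaling or quantile normalization. Without library 3 with tumours, or without library 1, 2 or 3 before tumours, 2 of these targets were called higher in place of 6 and Plk3 was not called lower.

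The other partners of the CDK inhibitors moved in both directions in DEN liver. Of 17 genes of the retinoblastoma axis, on which CDK inhibitors act, 7 were listed and 6 tested. Of these 2 were called higher, 1 lower and 3 not, beside 17.9% of all tested genes called higher and 49.5% called lower. Ccne1, a cyclin that takes cells into S phase, rose to 5.20 ± 2.19 RPKM with tumours, against 0.560 ± 0.0999 RPKM before tumours (limma, adjusted p = 0.00328). Ccnd1, the cyclin that p16 opposes, rose by 1.13 ± 0.21 on the log2 scale, and the repressor E2f8 fell by 1.04 ± 0.19. Without library 2 or 3 before tumours 1 gene of this axis was called higher. The INK4 inhibitor Cdkn2c, the only listed one of 5 other CDK inhibitors, had 4.69 ± 0.486 RPKM with tumours and 5.80 ± 0.0352 RPKM before tumours and was not called (limma, adjusted p = 0.415). Of 11 p53 regulators 5 were listed and 3 tested, and the damage-sensing kinase Atr fell by 0.80 ± 0.13 on the log2 scale, which lies -0.24 from the median of all tested genes, with 2 not called. After median scaling, and likewise after quantile normalization, 1 regulator was called lower. Of 10 genes of the Fas pathway 2 were listed and neither was called. Fadd, the adaptor that Fas recruits, had 4.31 ± 0.416 RPKM with tumours and 5.39 ± 0.188 RPKM before tumours (limma, adjusted p = 0.378), and Cflar, an inhibitor of that step, had 5.41 ± 0.183 RPKM with tumours and 6.87 ± 0.306 RPKM before tumours (limma, adjusted p = 0.227). Casp8, Mdm2, Ccng1, Fasl, Cdkn1b and Cdkn2b were not listed for DEN liver. The relative of Btg2 that was listed, Btg3, rose by 0.85 ± 0.23 on the log2 scale (limma, adjusted p = 0.0474), out of 7 BTG, TOB and sestrin genes considered, and was not called without library 1 or 3 with tumours, without library 2 or 3 before tumours or after quantile normalization.

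**Figure D2:**
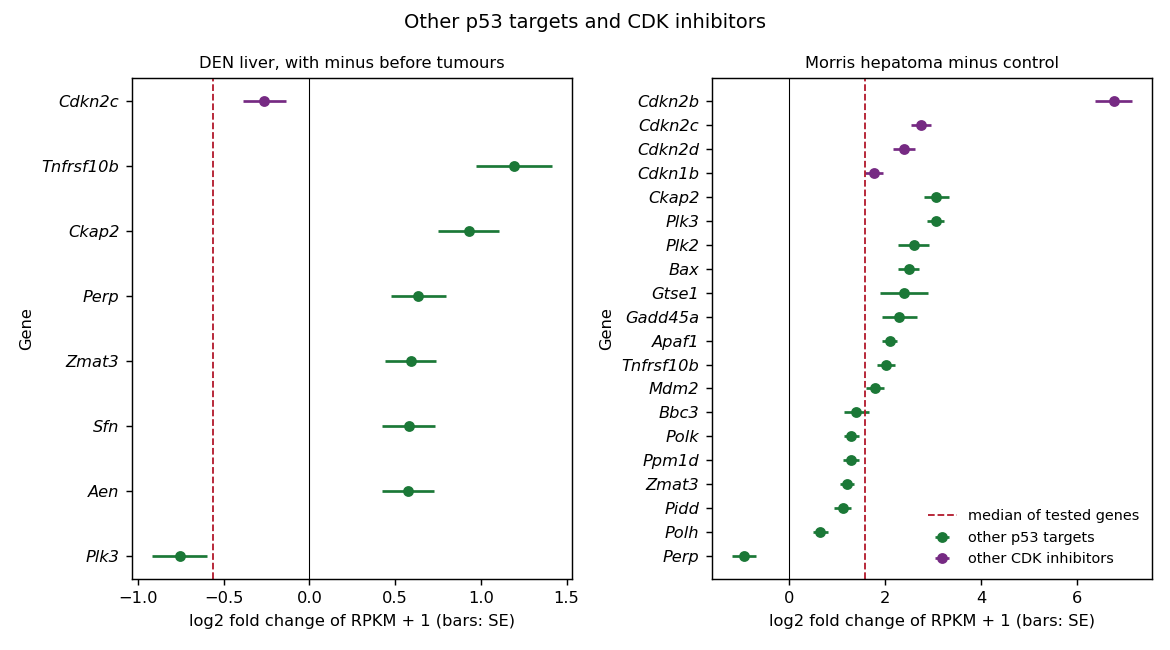
Log2 fold changes of RPKM + 1 (bars are SE) for the tested genes among 36 other p53 targets (green) and 5 other CDK inhibitors (purple), in DEN liver with tumours minus before tumours (left) and in Morris hepatoma minus control liver (right). The dashed line is the median of all tested genes, -0.56 on the left and 1.58 on the right, and Cdkn2b lies far to the right of every other gene in hepatoma at 6.76.

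Markers of other cell types also differed between the DEN groups, where 17.9% of all tested genes were called higher and 49.5% lower. The 4 listed of 7 endothelial markers summed to 22.8 to 38.4 RPKM with tumours, against 14.5 to 19.9 RPKM before tumours. Emcn, Pecam1 and Cdh5 were called higher. Tek went the other way, with 1.03 ± 0.451 RPKM with tumours and 1.86 ± 0.0788 RPKM before tumours, and was not called (limma, adjusted p = 0.0837). Acta2, the only listed of 8 stellate and fibroblast markers, had 11.04 to 19.5 RPKM with tumours, against 2.76 to 5.20 RPKM before tumours. The 5 listed of 9 macrophage markers summed to 83.8 to 115 RPKM with tumours and 91.6 to 112 RPKM before tumours, but they moved in opposite directions, with 2 of 4 tested called higher and 1 lower. Lyz2 rose to 66.6 ± 7.01 RPKM with tumours, against 37.4 ± 7.84 RPKM before tumours (limma, adjusted p = 0.0214), and Cd68 to 20.2 ± 1.22, against 14.5 ± 0.695 RPKM (limma, adjusted p = 0.0481). The Kupffer cell marker Clec4f fell to 9.29 ± 5.85 RPKM with tumours, against 33.9 ± 5.05 RPKM before tumours (limma, adjusted p = 0.0458), and Vsig4, with 5.98 ± 3.88 RPKM with tumours and 16.8 ± 1.62 RPKM before tumours, was not called. The part of these cells in the members' values was not tested. Over the 6 DEN libraries the genes most like Cdkn2a were the monocyte and macrophage receptor Cd14 (Pearson r 0.994), Slc7a7 (0.993) and Impdh1 (0.990). Cd14 had 33.9 ± 13.1 RPKM with tumours and 2.37 ± 1.36 RPKM before tumours. The genes most like Cdkn1a were Chrm3 (0.997), Pzp (0.996) and Wsb2 (0.996). These correlations describe 6 libraries that fall into 2 separate groups.

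The second comparison set Morris hepatoma against control rat liver. Cdkn2a, Cdkn3 and Psrc1 stood higher in every hepatoma library than in every control library. Of the listed genes 86.9% lay wholly higher in hepatoma. By limma with Benjamini-Hochberg adjustment all 3 tested members were called higher, beside 85.5% of all tested genes called higher and 8.73% called lower, so the calls themselves set no member apart.

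Cdkn2a had 554, 612, 255 and 565 RPKM in hepatoma libraries 1 to 4, against 0.252, 0.246 and 0.0737 RPKM in the control libraries. The control values are 6, 6 and 2 reads, and the hepatoma values 14006, 15845, 6194 and 13705 reads. Cdkn2a was barely detected in control liver and high in every hepatoma library, with library 3 lower than the other hepatoma libraries. The means were 497 ± 163 RPKM (SD, n = 4) in hepatoma and 0.190 ± 0.101 RPKM (n = 3) in control liver. The ratio of read rates, hepatoma over control, was 2689.6 (exact 95% interval 1603 to 4920.0, counting error only). The log2 fold change was 8.63 ± 0.30 as deposited, 7.60 after median scaling and 8.94 without hepatoma libraries 3 and 4, an alternative chosen after seeing the data.

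Hepatocyte RNA differed between the hepatoma libraries beside Cdkn2a. Library 2, with the lowest marker sum of 43.3 RPKM, had the highest Cdkn2a at 612 RPKM, and library 3, with the highest sum of 21729 RPKM, had the lowest at 255 RPKM. Libraries 1 and 4 were nearly level in Cdkn2a, at 554 and 565 RPKM, with marker sums of 981 and 18255 RPKM. The part of hepatocyte RNA in the Cdkn2a values was not tested.

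**Figure D3:**
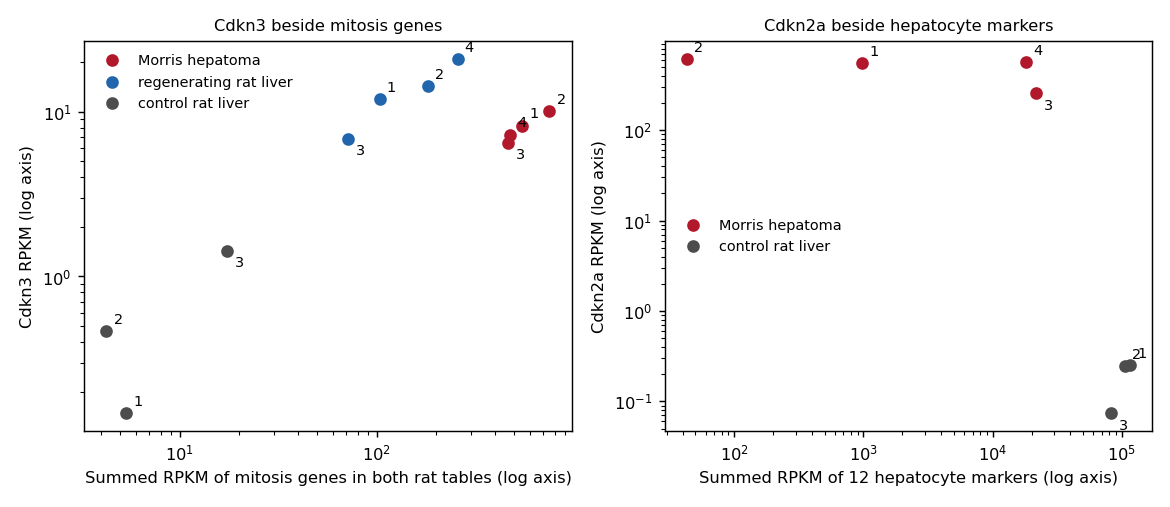
Left, Cdkn3 RPKM beside the summed RPKM of 12 mitosis genes listed in both rat tables, and right, Cdkn2a RPKM beside the summed RPKM of 12 hepatocyte markers (all axes log). Each point is a library, numbered within its group. Regenerating libraries 3, 1, 2 and 4 follow the same order on both left axes, and hepatoma libraries 1 and 4 have near-equal Cdkn2a at 981 and 18255 RPKM of hepatocyte markers.

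Mtap and Cdkn2b, neighbours of Cdkn2a, were high in hepatoma too, where 86.9% of listed genes lay wholly higher. In the RefSeq gene order of the rat genome Mtap, an enzyme of methionine salvage, lies next to Cdkn2a. Cdkn2b, which encodes the INK4 inhibitor p15, lies 2 genes away on the other side. LOC134479006, between Cdkn2a and Cdkn2b, and C5h9orf85, beyond Mtap, were not listed in rat and have no value here. Cdkn2b had 191, 189, 58.8 and 143 RPKM in hepatoma, against 0.262, 0.269 and 0.150 RPKM in control liver (log2 fold change 6.76 ± 0.39, limma, adjusted p = 2.98e-06). Library 3 was the lowest hepatoma library for Cdkn2b as it was for Cdkn2a. Mtap, looked up as a neighbour after the Cdkn2a values were seen, had 79.5, 79.2, 50.9 and 54.8 RPKM in hepatoma, against 1.60, 1.84 and 1.79 RPKM in control liver (log2 fold change 4.58 ± 0.20, limma, adjusted p = 4.48e-07). In regenerating liver Mtap had 2.56 ± 0.432 RPKM, against 1.74 ± 0.122 RPKM in control liver, and was not called (limma, adjusted p = 0.283).

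Psrc1 had 5.30, 6.56, 4.75 and 4.75 RPKM in hepatoma, against 0.0349 RPKM, no reads and 0.0306 RPKM in control liver. The control values are 2, 0 and 2 reads, so control liver was at the edge of detection, and the 4 hepatoma libraries were close to each other. The ratio of read rates was 243 (exact 95% interval 94.7 to 893, counting error only), and the log2 fold change was 2.62 ± 0.15. It was 1.94 after median scaling.

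Cdkn3 had 8.25, 10.1, 6.45 and 7.25 RPKM in hepatoma, against 0.147, 0.468 and 1.43 RPKM in control liver. The highest control value was in library 3, the control library with the most mitosis transcripts. The means were 8.00 ± 1.55 RPKM in hepatoma and 0.680 ± 0.665 RPKM in control liver, a log2 fold change of 2.48 ± 0.26. It was 1.32 after median scaling and 0.88 after quantile normalization, where 2 of the 3 members were called higher.

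The other CDK inhibitors rose in hepatoma, 4 of 4 tested out of 5 considered, beside 85.5% of all tested genes called higher. Their median log2 fold change was 2.57, beside 1.58 over all tested genes. Besides Cdkn2b these were Cdkn2c (2.75 ± 0.22), Cdkn2d (2.39 ± 0.22) and Cdkn1b (1.76 ± 0.18), which encodes p27. After median scaling 3 of them were called higher and after quantile normalization 2. Of the retinoblastoma axis 13 of 17 genes were tested, with 12 higher and 1 lower, beside 85.5% of all tested genes called higher, and with a median log2 fold change of 2.84 beside 1.58. After median scaling 10 were called higher and 1 lower, and after quantile normalization 8 higher and 1 lower. Ccnd2 rose to 64.1 ± 14.3 RPKM in hepatoma, against 0.579 ± 0.0887 RPKM in control liver (limma, adjusted p = 2.14e-07). Ccne1 rose by 4.31 ± 0.40, E2f1 by 3.96 ± 0.23 and Ccnd1 by 3.70 ± 0.27 on the log2 scale, and the pocket protein gene Rbl2 was the one that fell, a call lost without control library 1 or 2.

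Regulators and targets of p53 were listed in the hepatoma table. Of 11 p53 regulators 8 were tested and all 8 rose, beside 85.5% of all tested genes called higher. Their median log2 fold change was 1.19, beside 1.58 over all tested genes. The checkpoint kinases Chek1 (3.14 ± 0.18) and Chek2 (3.13 ± 0.24) had the largest changes among them. After median scaling 2 of these regulators were called higher and 2 lower. Of 36 other p53 targets 17 were listed and 16 tested. Of these 15 rose and 1 fell, beside 85.5% of all tested genes called higher and 8.73% called lower. Their median log2 fold change was 1.90, beside 1.58 over all tested genes. After median scaling, and likewise after quantile normalization, 4 were higher and 2 lower. Ckap2 rose by 3.07 ± 0.25, Plk3 by 3.05 ± 0.17, Plk2 by 2.59 ± 0.33 and the death effector Bax by 2.49 ± 0.21 on the log2 scale. Mdm2, the ubiquitin ligase that p53 induces and that degrades p53, had 24.1 ± 2.83 RPKM in hepatoma and 6.31 ± 1.37 RPKM in control liver (limma, adjusted p = 2.41e-05). Perp, an epithelial adhesion protein, fell by 0.94 ± 0.25 in hepatoma, a call lost without control library 1 or 2.

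Of the relatives of Btg2 and Sesn2, 4 of 7 were listed in the hepatoma table. Btg3 rose to 56.3 ± 11.1 RPKM in hepatoma, against 1.40 ± 1.08 RPKM in control liver (limma, adjusted p = 1.26e-06). Sesn3 rose by 1.41 ± 0.22 on the log2 scale and Tob1 fell by 0.94 ± 0.25, while Btg1, with 236 ± 13.4 RPKM in hepatoma and 171 ± 45.6 RPKM in control liver, was not called. The Tob1 call was lost without control library 2, and after median scaling 1 of these relatives was called higher and 2 lower. Of the Fas pathway 6 of 10 genes were tested, 5 rose and Tnfrsf1a was not called, beside 85.5% of all tested genes called higher. Bid rose by 2.15 ± 0.20, Daxx by 1.60 ± 0.16, Faim by 1.44 ± 0.25 and Fadd by 1.41 ± 0.28 on the log2 scale, and Casp8, the initiator caspase of Fas, by 1.03 ± 0.18. After median scaling none of the Fas pathway was called higher and 1 was called lower.

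Markers of non-parenchymal cells also differed in hepatoma, most of them higher, beside 85.5% of all tested genes called higher and 8.73% called lower. The median log2 fold change was 1.34 for the macrophage markers and 1.57 for the T and NK cell markers. It was 4.02 for the stellate and fibroblast markers and 2.08 for the endothelial markers, beside 1.58 over all tested genes. The 4 listed of 9 macrophage markers summed to 744 to 1353 RPKM in hepatoma, against 132 to 159.6 RPKM in control liver, a sum made up mainly of Lyz2 in hepatoma. Of these 3 were called higher and 1 lower, the Kupffer cell marker Clec4f, with 6.39, 6.02, 26.8 and 25.0 RPKM in hepatoma, against 79.0, 91.9 and 70.2 RPKM in control liver. The 4 listed of 12 T and NK cell markers summed to 8.85 to 21.5 RPKM in hepatoma, against 2.98 to 4.93 RPKM in control liver, with Cd3g, Lck and Cd2 called higher and Gzma lower. The 7 listed of 8 stellate and fibroblast markers summed to 471 to 1195 RPKM, against 20.2 to 84.6 RPKM, and the 3 listed of 7 endothelial markers to 45.5 to 74.7 RPKM, against 6.48 to 11.6 RPKM. Their part in the members' values was not tested. Over the 7 libraries of this table the genes most like Cdkn2a were Trim52, Arpc3 and Gprc5a, each at a Pearson r of 1.00, where the hepatoma and control libraries form 2 separate groups. Gprc5a had 117 ± 30.6 RPKM in hepatoma and 0.0311 ± 0.00540 RPKM in control liver.

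The third comparison set regenerating rat liver against the same control libraries. Cdkn3 and Psrc1 stood higher and Sesn2 lower in regenerating liver, with no overlap of the groups. Of the listed genes 87.4% lay wholly higher and 5.4% wholly lower in regenerating liver. By limma with Benjamini-Hochberg adjustment 1 of 2 tested members was called higher (Cdkn3) and 1 lower (Sesn2), beside 21.2% of all tested genes called higher and 0.763% called lower. Psrc1 stayed below the 1 RPKM filter.

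**Figure D4:**
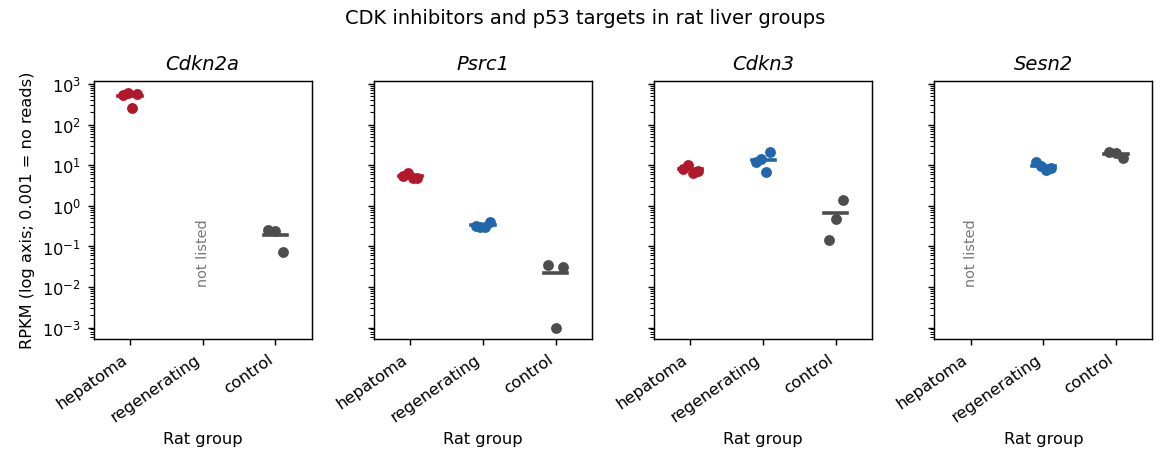
RPKM (log axis, 0.001 standing for no reads) of Cdkn2a, Psrc1, Cdkn3 and Sesn2 in Morris hepatoma (red), regenerating liver (blue) and control liver (grey). Points are libraries and bars are group means. Cdkn2a separates hepatoma from control liver by far the most, Psrc1 lies in 3 separate bands, and Cdkn3 overlaps between hepatoma and regenerating liver.

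Cdkn3 had 11.9, 14.2, 6.86 and 20.9 RPKM in regenerating libraries 1 to 4, against 0.147, 0.468 and 1.43 RPKM in control liver. Library 3 was the lowest and library 4 the highest, and all lay above the controls. The means were 13.5 ± 5.82 RPKM in regenerating liver (SD, n = 4) and 0.680 ± 0.665 RPKM in control liver (n = 3), a log2 fold change of 3.09 ± 0.36. The 12 listed mitosis genes kept the same order, with 103, 182, 71.7 and 257 RPKM summed in regenerating libraries 1 to 4, against 5.33, 4.24 and 17.4 RPKM in control liver. Of these 12 genes 9 rose and 3 were not called, beside 21.2% of all tested genes called higher. Their median log2 fold change was 2.59. After median scaling 3 were called higher, and 1 was without control library 1 or 2 or regenerating library 2. The Cdkn3 call was lost without control library 1 or 2, and its log2 fold change without any 1 library ran from 2.85 to 3.39.

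Psrc1 had 0.324, 0.301, 0.310 and 0.399 RPKM in regenerating liver, against 0.0349 RPKM, no reads and 0.0306 RPKM in control liver. These are 22, 18, 19 and 25 reads in regenerating liver and 2, 0 and 2 reads in control liver. The regenerating libraries were close to each other at a low level. The ratio of read rates, regenerating over control, was 15.1 (exact 95% interval 5.70 to 56.8, counting error only).

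Sesn2 had 12.0, 9.47, 7.79 and 8.43 RPKM in regenerating liver, against 21.6, 20.7 and 15.2 RPKM in control liver. Every regenerating library was lower, with control library 3 the nearest to them. That library was also nearest to regenerating liver in the hepatocyte enzyme G6pc, with 246 RPKM, against 632 and 757 RPKM in control libraries 1 and 2. The means were 9.42 ± 1.85 RPKM in regenerating liver and 19.1 ± 3.49 RPKM in control liver, a log2 fold change of -0.95 ± 0.17 that lay -1.48 from the median of all tested genes. It was -1.63 after median scaling. The call was lost without control library 1 or 2 and without regenerating library 2, 3 or 4, while the log2 fold change ran from -1.10 to -0.86.

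Markers of other cell types differed in regenerating liver as well. The 2 listed of 7 endothelial markers summed to 8.46 to 15.2 RPKM in regenerating liver, against 3.14 to 4.78 RPKM in control liver. The 3 listed of 8 stellate and fibroblast markers summed to 55.1 to 73.6 RPKM, against 17.4 to 46.3 RPKM. G6pc, the only listed of 12 hepatocyte markers, had 84.3 to 146 RPKM in regenerating liver, against 246 to 757 RPKM in control liver. By limma with Benjamini-Hochberg adjustment the endothelial Emcn and the collagen Col1a1 were called higher, G6pc lower and the other 3 not. Their part in the members' values was not tested.

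Of the 5 other CDK inhibitors the INK4 genes Cdkn2c and Cdkn2d were listed in regenerating liver. In this comparison 21.2% of all tested genes were called higher, and the median log2 fold change of all tested genes was 0.53. Cdkn2c rose to 3.22 ± 0.788 RPKM in regenerating liver, against 0.498 ± 0.237 RPKM in control liver (limma, adjusted p = 0.00753), and Cdkn2d to 3.79 ± 1.18 RPKM, against 1.01 ± 0.569 RPKM (limma, adjusted p = 0.0300). Only 1 of the pair was called without control library 1 or 2 or without regenerating library 1, 2 or 4, 1 after median scaling and 0 after quantile normalization. Of the retinoblastoma axis 4 of 17 genes were tested. Ccnd1 rose by 1.63 ± 0.17, Cdk4 by 0.81 ± 0.13 and Ccnd2 by 0.61 ± 0.11 on the log2 scale, and E2f1, with 2.91 ± 1.62 RPKM in regenerating liver and 0.318 ± 0.201 RPKM in control liver, was not called (limma, adjusted p = 0.0556). After median scaling 0 of these genes were called higher, and 1 was without control library 1 or 2 or regenerating library 1 or 2. Of 36 other p53 targets Rrm2b alone was listed, at 0.726 ± 0.285 RPKM in regenerating liver and 1.30 ± 0.260 RPKM in control liver, and it was not called (limma, adjusted p = 0.334). Of the Fas pathway 2 genes were tested and neither was called, although 1 was called higher without control library 3. Casp8, with 1.47 ± 0.108 RPKM in regenerating liver and 0.963 ± 0.264 RPKM in control liver, had an adjusted p of 0.353 by limma, and the TNF receptor Tnfrsf1a, with 76.8 ± 5.50 RPKM in regenerating liver and 51.6 ± 15.9 RPKM in control liver, an adjusted p of 0.171. Neither p53 regulator that was listed was called, and no relative of Btg2 or Sesn2 was listed.

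Cdkn3 and Psrc1 were listed in both rat tables and could be set side by side in hepatoma and regenerating liver. Psrc1 averaged 5.34 ± 0.852 RPKM in hepatoma and 0.334 ± 0.0449 RPKM in regenerating liver (SD, n = 4 each), with no overlap of the groups and a log2 fold change of 2.24 ± 0.11. Cdkn3 averaged 8.00 ± 1.55 RPKM in hepatoma and 13.5 ± 5.82 RPKM in regenerating liver, and the groups overlapped. Its log2 fold change was -0.61 ± 0.30, and -2.06 after median scaling. Non-overlap with hepatoma higher held for 83.4% of the 1752 genes listed in both tables. By limma with Benjamini-Hochberg adjustment 1 of the pair was called higher (Psrc1) and 0 lower, beside 81.5% of tested genes called higher and 4.66% called lower. The 12 mitosis genes summed to 466 to 753 RPKM in hepatoma and to 71.7 to 257 RPKM in regenerating liver, with no overlap. Of these 12 genes 10 were called higher in hepatoma and 2 were not called. Cdkn2c and Cdkn2d were both called higher in hepatoma than in regenerating liver, by 1.26 ± 0.19 and 1.13 ± 0.20 on the log2 scale. Both values lay below the median of 1.45 over all tested genes.

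Side by side, the members that recur gave these differences in the separate tables. Psrc1 and Cdkn3 stood higher in DEN liver with tumours, in hepatoma and in regenerating liver than in their own comparison libraries. Cdkn2a stood higher in DEN liver with tumours by a log2 fold change of 1.37 ± 0.19 and in hepatoma by 8.63 ± 0.30, and its level was 4.20 RPKM in DEN liver with tumours and 497 RPKM in hepatoma, from tables normalised separately. Sesn2 stood higher in DEN liver with tumours by 0.67 ± 0.14 and lower in regenerating liver, with a log2 fold change of -0.95 ± 0.17. The rat comparisons share their control libraries, so their differences are not independent of each other.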

How the data were processed

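RNA sequencing libraries of DEN mouse liver (with tumours, before tumours), Morris hepatoma, regenerating rat liver and control rat liver were grouped by GEO's labels. The authors deposited 3 tables with values per gene and library that are read here as RPKM, a unit that the file headers do not name and that was inferred from the steps of low values, in which 0.001 stands for no reads. Per the file headers the deposited tables also give a log2 ratio and a p-value, and every listed p-value is under 0.05. The sources used here do not say how reads were aligned and counted, or on which build. The Morris table has 1 line that names no gene, which was dropped, and the tables held 0 columns of other series.

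The test was limma 3.58.1 in R 4.3.3, two-sided and with the trend and robust options, applied to log2(RPKM + 1). A gene entered it with 1 RPKM or more in a number of libraries equal to the size of the smaller group. The hepatoma was set against regenerating liver in 1 fit on the genes in both tables. Because the tables are preselected, Benjamini-Hochberg adjustment counted all annotated protein-coding genes, which are 21951 in GENCODE M21 for mouse and 23154 in RefSeq GRCr8 for rat. Reads were recovered as whole multiples within 0.05 of a gene's smallest step, for 293 of 300 low genes checked in the DEN table, 298 of 300 in the Morris table and 300 of 300 in the regenerating table. Read-rate ratios have exact 95% binomial intervals, which cover counting error only. Tables and figures were made in Python 3.11.15 (pandas 2.3.3, numpy 2.4.6, scipy 1.17.1, matplotlib 3.10.9). Promoters came from a RefSeq table.

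The members and gene lists were chosen with earlier results of these data known. Named genes are the members, up to 4 called genes with the largest fold change per list, the genes most like Cdkn1a and Cdkn2a, and a few fixed regulators (Mdm2, Ccng1, Cdkn1b, Cdkn2b, Fasl, Casp8). The others named, among them Mtap, Zmat3, Sfn, Aen and genes that were not called, were chosen after their values were seen. Some genes of the lists are not reported here. Alternatives were another pseudocount, filter, scaling, limma setting, adjustment and fit, a replicate block, and leaving out each library.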

Additional observations from a re-analysis of the deposited data

Results flagged for a closer look

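Each of 57 groups of 4 libraries, counting each described gene once per group, was checked for a library far from the other 3 relative to the range of the group. Chance alone flags about 1 in 20 such groups. The 4 found among the 57 are near that share. All 4 are in Morris hepatoma, where more of the described genes are listed than in regenerating liver, so they do not set hepatoma apart. Cdkn2a had 255 RPKM in hepatoma library 3, against 554 to 612 RPKM in the other hepatoma libraries. Plk1, a mitotic kinase, had 59.3 RPKM in library 2, against 34.9 to 39.0 RPKM in the others. Ccne1 had 48.9 RPKM in library 2, against 22.3 to 26.8 RPKM. Faim, an inhibitor of Fas-induced apoptosis, had 6.72 RPKM in library 4, against 12.1 to 13.2 RPKM.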

How the results depend on the processing

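The log2 fold changes of the members kept their sign under every alternative that gave a value, with 180 values within the spread between libraries of the first one and 33 beyond it. The counts of calls depended far more on the setting. With library medians set equal, DEN calls lower numbered 633, other p53 targets lower 0 and members lower 0; hepatoma calls numbered 2574 higher and 2200.0 lower, with 4 other p53 targets higher and 2 lower; hepatoma against regenerating liver gave 491 higher and 481 lower; regenerating liver gave 26 higher and 54 lower, with 1 other CDK inhibitor higher. Quantile normalization gave 589 lower in DEN with 0 members and 0 other p53 targets lower, 2514 higher and 1878 lower in hepatoma with 2 other CDK inhibitors higher, 4 other p53 targets higher and 2 lower, 514 higher and 460.0 lower for hepatoma against regenerating liver, and 20 higher and 46 lower in regenerating liver with 0 other CDK inhibitors higher and 1 other p53 target lower. A filter at 5 RPKM gave 289 higher and 1072 lower in DEN, with 2 members and 0 other p53 targets higher. Of the members only Cdkn1a, Btg2 and Fas passed that filter in DEN. In regenerating liver it gave 149 higher and 4 lower. Neither Cdkn2c nor Cdkn2d passed it there, so 0 other CDK inhibitors higher was fixed in advance. With no filter regenerating liver had 22 lower and 2 members higher. Adjustment over listed genes gave 1561 higher and 65 lower in regenerating liver, with 1 other p53 target lower. In 1 fit of the 3 rat groups on shared genes, with fewer genes tested, hepatoma had 1553 higher and 68 lower, and regenerating liver had 3 lower. Only 2 other CDK inhibitors were tested in that fit, and both were called higher in hepatoma. No other p53 target was tested in it, so 0 called higher and 0 lower was fixed in advance. Sesn2, the member called lower in regenerating liver, was not in it, and 0 members were called lower there.

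Libraries with the same replicate number did not deviate together, with correlations of -0.159 to -0.022 in DEN, -0.220 to -0.152 in hepatoma and -0.317 to 0.151 in regenerating liver, so the number is not taken as a pairing. With the replicate block DEN had 0 members lower, hepatoma 239 lower and 0 other p53 targets lower, and regenerating liver 25 higher and 2 lower, with 0 members higher, 0 members lower and 0 other CDK inhibitors higher.

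Without any 1 library, DEN had 409 to 631 genes higher (409 without library 2 before tumours) and 922 to 1962 lower (922 and 938 without libraries 1 and 2 before tumours, 1093 without library 3 with tumours), 5 to 6 members higher and 0 to 1 lower, and 2 to 4 other p53 targets higher and 0 to 1 lower. Hepatoma had 6720.0 to 6967 higher and 346 to 838 lower (353 and 346 without control libraries 1 and 2), with 0 to 1 other p53 target lower. Regenerating liver had 20 to 338 higher and 1 to 15 lower (20 and 41 higher without control libraries 1 and 2, 151, 78 and 230.0 without regenerating libraries 1, 2 and 4; lower calls fell to 7, 4, 2, 1 and 1 without regenerating libraries 3, 1 and 2 and control libraries 1 and 2), with 0 to 1 members higher, 0 to 1 lower and 1 to 2 other CDK inhibitors higher. Leaving out hepatoma libraries 3 and 4 together, chosen after seeing the data, kept every count of member and other p53 target calls. Where the cause of a change is not given by fewer genes or libraries, the cause was not tested. Control values of 0 to 6 reads for Cdkn2a and Psrc1 limit how exactly their ratios are known.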
